A study of Mus musculus with 12 samples.

Results

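Arginase 1 and the genes that mark alternative macrophage activation were followed in mouse skin wounds treated with capsaicin (CAP) or with gel alone. They are the 10 genes named Arg1, Mrc1, Chil3, Retnla, Cd163, Mgl2, Clec10a, Il4ra, Il10 and Timd4 among the 55487 genes of each deposited table, and each name matched 1 row. All 12 libraries came from full-thickness wounds on the back of male C57BL/6JNarl mice, 6 weeks old. The authors excised surrounding tissue together with the wounds, and its share in each library is not given. CAP-treated wounds received 10 µM CAP once daily in Pluronic F127 gel, the sham group received the gel alone, and 3 libraries were made per treatment at day 3 and at day 6 after wounding. Since every mouse had 2 wounds and no source used here ties a library to a mouse, n counts libraries, and the p values measure the spread between them, which may in part be technical. The comparison with gel alone asks what CAP adds to the gel. Wounds without any gel were not analysed here.

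Macrophages change their gene programme as a wound moves from inflammation to repair. Interleukin 4 and interleukin 13 act through a receptor that holds the Il4ra chain, the receptor activates the transcription factor STAT6, and STAT6 turns on Arg1, Mrc1, Chil3, Retnla, Mgl2 and Clec10a. This state is called alternative, or M2, activation. Interleukin 10 dampens inflammation and raises Cd163, and Timd4 marks long-lived tissue macrophages that take up dying cells. Arg1 is also induced outside this programme, for example by hypoxia, so that its level alone does not define the state.

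Expression was given in TPM (transcript abundance per library), values that are scaled to transcript length and to the library total, so that levels of different genes can be compared. Depth is unknown for such values. Differences are on the scale log2(TPM + 0.1), which understates the change of low genes such as Il10 and Timd4. A gene was called changed when its unadjusted limma p was under 0.05 and its levels differed 2-fold or more, the threshold of the study, and adjusted p values are Benjamini-Hochberg values over all genes tested. An exact permutation test of 3 libraries against 3 cannot give a p below 0.1. Between 18533 and 19325 genes per library reached 0.3 TPM, and the 10 genes together held between 0.044% and 0.257% of the TPM of a library. The lowest share was that of CAP day 6 replicate 2, which also had the largest share of TPM in its 10 most abundant genes (14.1%, against 8.27% to 11.3% in the others). Macrophage and monocyte markers were plentiful in every group, and their 18 genes summed to between 7218 and 18140 TPM. In whole wounds, fewer cells of a type and less RNA per cell cannot be told apart.

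RefSeq windows upstream of the gene start were given for 7 of the 10 genes. The windows of Retnla and Chil3 are shown because they are the ones with a match to a STAT motif, and because the levels of these genes moved apart between the days. They run 5′ to 3′ on the strand of the gene, on GRCm38.p6, up to the base before the deposited gene start. Capitals mark the matches to TTCNNNNGAA, the spacing bound by STAT6, in Retnla (chr16:48842359-48842550, plus strand), and to TTCNNNGAA, the spacing of other STAT factors, in Chil3 (chr3:106167565-106167814, minus strand).
Retnla: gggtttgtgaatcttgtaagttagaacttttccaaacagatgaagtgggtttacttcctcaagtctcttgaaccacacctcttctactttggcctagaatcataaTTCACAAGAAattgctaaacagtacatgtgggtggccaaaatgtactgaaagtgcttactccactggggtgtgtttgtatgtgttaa
Chil3: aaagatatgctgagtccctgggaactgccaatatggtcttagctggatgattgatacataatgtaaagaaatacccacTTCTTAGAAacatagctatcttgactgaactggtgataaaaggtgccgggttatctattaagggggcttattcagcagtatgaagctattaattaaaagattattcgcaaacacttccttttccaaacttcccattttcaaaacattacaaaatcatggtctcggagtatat
The Retnla match starts 87 bases and the Chil3 match 172 bases before the gene start. Both motifs read the same on either strand and their matches do not overlap. Over 32851 RefSeq windows, TTCNNNNGAA was found in 4.58% of windows cut to 192 bases, the length shown for Retnla, and TTCNNNGAA in 7.02% of windows of 250 bases, the length shown for Chil3. The core of PU.1, a factor that macrophages depend on, was searched as GAGGAA on both strands. It lay 3 times in the window of Mrc1 (228 bases) and once in those of Retnla (192 bases) and Mgl2 (222 bases). Of all windows, 23.3% held it at 250 bases and 18.2% when cut to 192 bases. These are matches of letters only.

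At day 3, the genes did not move as a group. Arg1 rose 2.71-fold in CAP-treated wounds, while Retnla and Timd4 fell. The other 7 genes did not pass the threshold, and the mannose receptor gene Mrc1 was at almost the same mean level in both groups. Of the 10 genes, 1 was called higher and 2 lower, beside 0.426% called higher and 1.16% called lower of all 18330 genes tested (1.58% together). The groups did not overlap for 2 of the 10 genes, Retnla and Timd4, and for 11.6% of all genes. The median difference of the 10 genes was -0.53 on the log2 scale, and that of all genes was -0.05.

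Arg1 encodes the arginase that turns arginine into ornithine and urea, and it was the most abundant of the 10 genes in all 12 libraries. It lies at chr10:24915221-24927484 on the minus strand of GRCm38, the build of all positions given here, and shares no stretch of 31 bases with transcripts of other genes. At day 3 the sham libraries held 681, 341 and 322 TPM. The CAP libraries held 523, 1390 and 2057 TPM. Of the CAP libraries, 2 lay well above every sham library and 1 lay within their range, so the groups overlapped. The log2 difference was 1.44 ± 0.53 (SE; limma p = 0.0306, adjusted p = 0.719; exact permutation p = 0.2). The Arg1 call was lost on leaving out replicate 2 (1.29) or 3 (1.25) of the sham group or replicate 2 (1.30) or 3 (1.02) of the CAP group, and in the joint fit of 12 libraries.

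Chil3 (chr3:106147554-106167564, minus strand) encodes Ym1, a secreted chitinase-like protein of alternatively activated macrophages that neutrophils and their precursors also make. It held 35.2, 32.4 and 29.3 TPM in the sham libraries, which lay close together. In the CAP libraries it held 33.8, 124.6 and 61.1 TPM. The 2 CAP libraries that were high in Arg1 were also high in Chil3, though in the opposite order. The difference of 0.98 ± 0.43 (SE) missed the threshold (limma p = 0.0558, adjusted p = 0.773; exact permutation p = 0.2). Leaving out CAP replicate 1 took it to 1.44, past the threshold. Of 7 neutrophil markers tested at day 3, 3 were higher and 4 lower, with Mmp8 called higher and a median of -0.04. Their part in the Chil3 difference was not tested. Of the 31-base stretches of Chil3, 41.5% occur in other genes, most of them in its neighbour Chil4, so that reads may be split between these neighbours. Chil4 itself held at most 2.02 TPM.

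Retnla (chr16:48842551-48844461, plus strand) encodes RELMα (Fizz1), a secreted protein that fibroblasts and epithelium respond to in wounds. The sham libraries held 5.06, 9.37 and 5.90 TPM, and the CAP libraries 1.39 and 3.17 TPM, with replicate 2 listed at 0. All CAP libraries were below all sham libraries. The log2 difference was -3.08 ± 1.19 (SE; limma p = 0.0374, adjusted p = 0.732; exact permutation p = 0.1). Its size rests on the library listed at 0, and without that library it was -1.59. The Retnla call was lost on leaving out replicate 1 (-3.26), 2 (-2.82) or 3 (-3.15) of the sham group, without a filter on low genes, and with a pseudocount of 0.01 TPM (-4.20).

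Timd4 (chr11:46810800-46844332, plus strand) encodes the phosphatidylserine receptor TIM-4, with which resident macrophages hold apoptotic cells. The sham libraries held 1.73, 1.36 and 1.91 TPM. The CAP libraries held 0.445, 0.363 and 0.428 TPM, so that all 3 were under 0.5 TPM and every sham library was above 1. The log2 difference was -1.78 ± 0.27 (SE; limma p = 3.56e-04, adjusted p = 0.500; exact permutation p = 0.1). Timd4 was near the lower limit of the scale. Its mean of 0.412 TPM in CAP-treated wounds was little above the 0.3 TPM required for testing. The log2 difference stayed between -1.91 and -1.68 whichever library was left out. With a pseudocount of 1 TPM it was -0.91, short of 2-fold.

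The receptor and lectin genes differed less at day 3. Il4ra (chr7:125552120-125579474, plus strand), which encodes the shared receptor chain for interleukin 4 and interleukin 13, held 324, 154 and 185 TPM in sham and 186, 176 and 143 TPM in CAP-treated wounds. Mrc1 (chr2:14229392-14332057, plus strand), which encodes the mannose receptor CD206, held 211, 117 and 147 TPM in sham and 132, 129 and 191 TPM in CAP-treated wounds. The groups overlapped for both genes, with differences of -0.33 ± 0.27 for Il4ra and -0.05 ± 0.25 for Mrc1 (SE). The sign of the Mrc1 difference turned with median-ratio scaling (0.0053) and on leaving out replicate 1 of the sham group (0.18) or replicate 1 (0.03) or 2 (0.05) of the CAP group.

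Cd163, Mgl2 and Clec10a were each lower on average in CAP-treated wounds at day 3 and did not pass the threshold. Cd163 (chr6:124304656-124330527, plus strand) encodes the scavenger receptor for haemoglobin-haptoglobin. It held 62.9, 35.1 and 39.2 TPM in sham and 41.8, 20.3 and 22.7 TPM in CAP-treated wounds (-0.72 ± 0.33, SE; limma p = 0.0626, adjusted p = 0.787; exact permutation p = 0.3). The Cd163 difference passed the threshold, at -1.04, on leaving out CAP replicate 1. Mgl2 (chr11:70130329-70137550) and Clec10a (chr11:70156197-70170834) encode galactose-type lectins, CD301b and CD301a, and lie close together on the plus strand. Mgl2 held between 6.85 and 9.23 TPM in sham and 6.81, 2.36 and 8.79 TPM in CAP-treated wounds, and Clec10a between 80.7 and 112 TPM in sham and 85.2, 52.3 and 82.0 TPM in CAP-treated wounds. Both genes were lowest in CAP replicate 2, the library in which Retnla was listed at 0. Of their 31-base stretches, 19.3% of those of Mgl2 occur in Clec10a and 13.7% of those of Clec10a in Mgl2, so that the division of reads between these lectins is uncertain.

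Il10 (chr1:131019845-131024974, plus strand) encodes the anti-inflammatory cytokine interleukin 10 and was near the lower limit of the scale. At day 3 it held 2.55, 0.538 and 1.53 TPM in sham and 0.801, 0.645 and 0.592 TPM in CAP-treated wounds. Sham replicate 2 was the lowest of all 6 libraries, and the groups overlapped. The difference was -0.86 ± 0.52 (SE; limma p = 0.147, adjusted p = 0.846; exact permutation p = 0.4). It passed the threshold, at -1.43, once that library was left out.

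**Figure D1:**
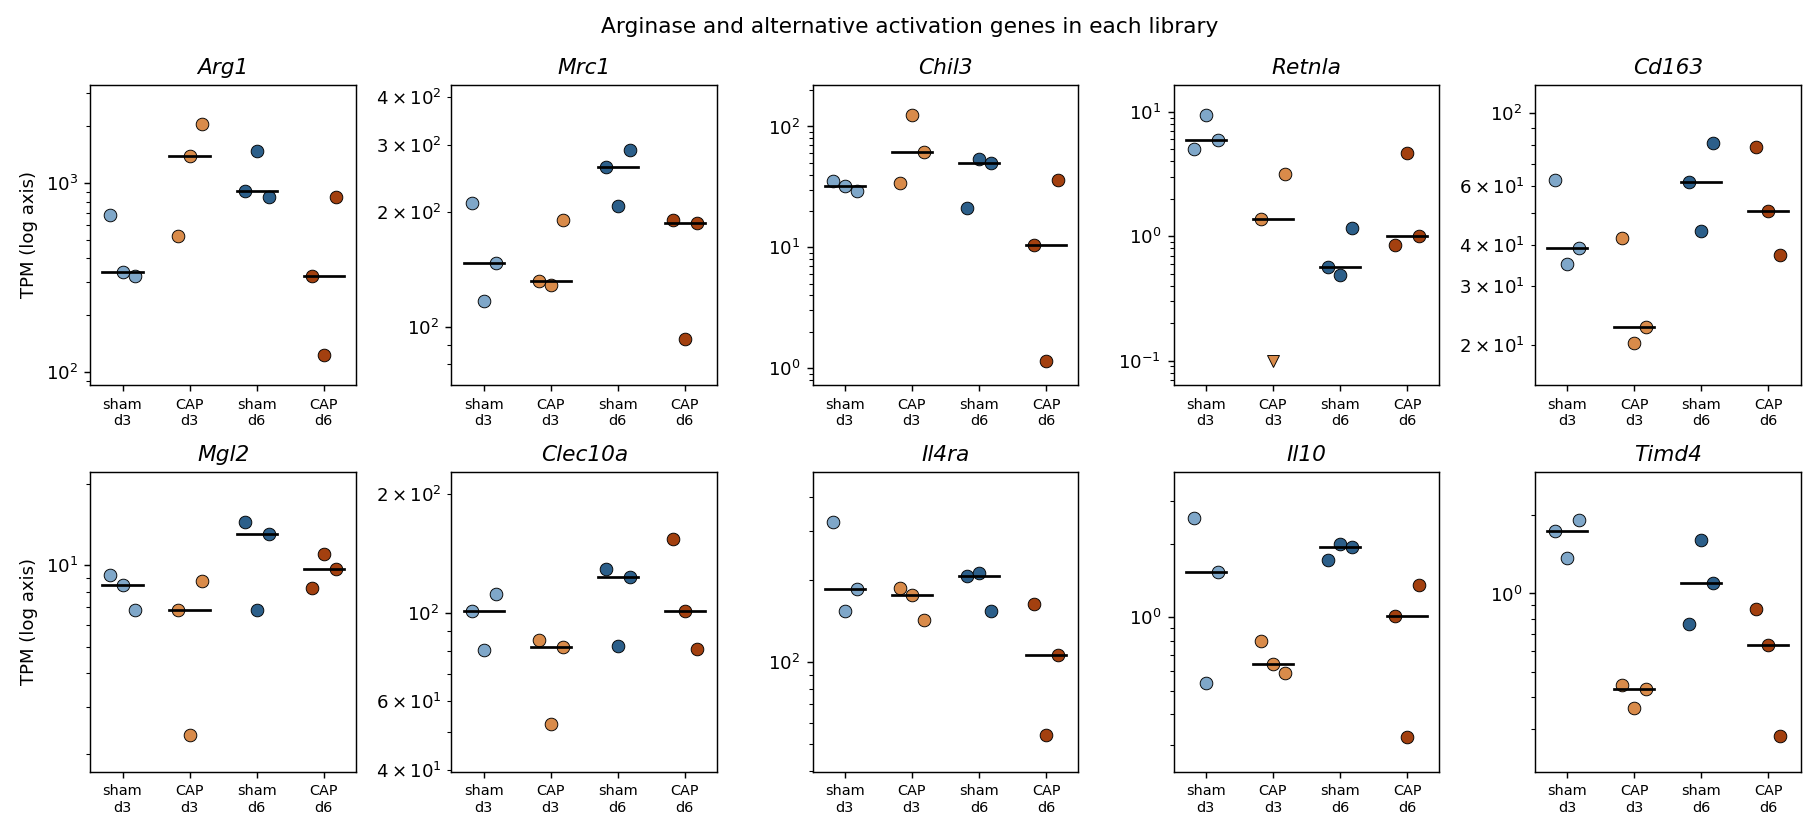
Level of each of the 10 genes in each library, in TPM on a log axis, at day 3 (d3) and day 6 (d6) in sham and CAP-treated wounds, with 1 point per library and a bar at the median of 3 libraries. The triangle marks the library in which Retnla is listed at 0, drawn at 0.1 TPM. Arg1 and Chil3 have their highest medians in CAP-treated wounds at day 3 and their lowest at day 6, and all 3 CAP libraries of Timd4 at day 3 lie under 0.5 TPM.

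At day 6, the direction of Arg1 was opposite to that at day 3. Arg1 fell 3.24-fold in CAP-treated wounds and Il10 fell 2.25-fold. Mrc1 and Il4ra were lower with a limma p under 0.05 but by less than 2-fold, and Cd163, Mgl2 and Clec10a differed by less than 0.2 on the log2 scale. Of the 10 genes, 2 were called lower and 0 higher, beside 2.34% called lower and 1.46% called higher of 18323 genes tested (3.8% together). An unadjusted p under 0.05 was reached by 4 of the 10 genes and by 19.2% of all genes, and no gene of the table passed an adjusted p of 0.05. The groups did not overlap for 2 of the 10 genes, Mrc1 and Il10, and for 26% of all genes. The median difference was -0.82 for the 10 genes and -0.12 for all genes. Median-ratio scaling and quantile normalization took the latter to between -0.0056 and 0, and raised the share of called genes that were higher from 38.5% to 58.2% and 62.5%. Relative to the median of all genes, the differences were -1.57 for Arg1 and -1.05 for Il10.

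Arg1 at day 6 held 914, 1479 and 844 TPM in sham and 323, 123 and 847 TPM in CAP-treated wounds. Of the CAP libraries, 2 were below every sham library, and the third, at 847 TPM, was within 3 TPM of the lowest sham library. The log2 difference was -1.69 ± 0.64 (SE; limma p = 0.0339, adjusted p = 0.238; exact permutation p = 0.2). It missed the threshold without sham replicate 1 (-1.79), 2 (-1.44) or 3 (-1.85) and without CAP replicate 1 (-1.69) or 2 (-0.9997). Leaving out CAP replicate 3 kept the call (-2.39).

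Chil3 spread most of all at day 6. The sham libraries held 21.3, 53.9 and 49.7 TPM, and the CAP libraries 10.4, 1.15 and 36.4 TPM. The order of the CAP libraries was that of Arg1, with replicate 3 high and replicate 2 lowest. Its difference of -2.31 ± 1.13 (SE; limma p = 0.0802, adjusted p = 0.304; exact permutation p = 0.2) missed the threshold, and passed without CAP replicate 3 (-3.42) and in the joint fit of 12 libraries. Neutrophil markers were lower for 8 of 8 tested at day 6, with 0 called and a median of -1.22 against -0.12 for all genes. Their part in the Chil3 difference was not tested.

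Il10 at day 6 held 1.71, 2.004 and 1.94 TPM in sham and 1.02, 0.322 and 1.35 TPM in CAP-treated wounds, and the groups did not overlap. The log2 difference was -1.17 ± 0.47 (SE; limma p = 0.0427, adjusted p = 0.248; exact permutation p = 0.1). The call was lost without sham replicate 1 (-1.23), 2 (-1.13) or 3 (-1.15), without CAP replicate 1 (-1.34) or 2 (-0.64), without a filter on low genes, with a pseudocount of 1 TPM (-0.65), and under quantile normalization (-0.98) or median-ratio scaling (-1.06). Il4ra held 206, 212 and 154 TPM in sham and 163, 54.3 and 106 TPM in CAP-treated wounds (-0.94 ± 0.38, SE; limma p = 0.0400, adjusted p = 0.245; exact permutation p = 0.2). It passed 2-fold without sham replicate 3 (-1.09) or CAP replicate 1 (-1.31). Mrc1 held 263, 207 and 291 TPM in sham and 191, 93.3 and 187 TPM in CAP-treated wounds, with no overlap (-0.75 ± 0.29, SE; limma p = 0.0372, adjusted p = 0.242; exact permutation p = 0.1).

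CAP day 6 replicate 2 was the lowest library of its group in Arg1, Mrc1, Chil3, Il4ra and Il10, and it was the highest in Retnla and Mgl2. The same library stood apart in its cell type markers. Its 10 keratinocyte markers summed to 106908 TPM, against 79215 and 51750 TPM in the other CAP libraries and 31929 to 39277 TPM in sham wounds at day 6, and its 10 neutrophil markers to 281 TPM, against 2676 and 1209 TPM. Macrophage and monocyte markers summed to 9328, 7218 and 16478 TPM in the CAP libraries and to between 13650 and 18140 TPM in sham wounds, and all 18 were lower on average, with 2 called. Endothelial markers were lower for 7 of 7 genes (Pecam1, Cdh5 and Emcn called), with sums of 89.8 to 250 TPM in CAP-treated and 291 to 393 TPM in sham wounds. Lymphatic endothelial markers, with sums of 85.8 to 214 and 318 to 349 TPM, were lower for 7 of 7 table rows. Pdpn and a row of Ccl21a (-1.09) were called, while the other row of Ccl21a (-0.32) was not. The part of these markers in the differences at day 6 was not tested.

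The lectins and the scavenger receptor differed least at day 6. Cd163 held 61.8, 44.1 and 80.8 TPM in sham and 78.9, 50.7 and 37.2 TPM in CAP-treated wounds (-0.19 ± 0.32, SE). Clec10a held 129, 82.3 and 123 TPM in sham and 154, 101 and 80.8 TPM in CAP-treated wounds (-0.02 ± 0.27, SE), and its sign turned with either scaling. For both genes the SE is larger than the difference. Mgl2 held 14.5, 6.83 and 13.1 TPM in sham and 8.21, 11.0 and 9.70 TPM in CAP-treated wounds (-0.19 ± 0.29, SE). Timd4 held 0.766, 1.60 and 1.09 TPM in sham and 0.869, 0.634 and 0.283 TPM in CAP-treated wounds, which overlapped (-0.90 ± 0.46, SE; limma p = 0.0901, adjusted p = 0.315; exact permutation p = 0.2). Retnla, by contrast, held 0.570, 0.486 and 1.18 TPM in sham and 0.849, 4.63 and 1.01 TPM in CAP-treated wounds (1.11 ± 0.66, SE; limma p = 0.139, adjusted p = 0.378; exact permutation p = 0.3). Its highest library was CAP replicate 2, and the groups overlapped.

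**Figure D2:**
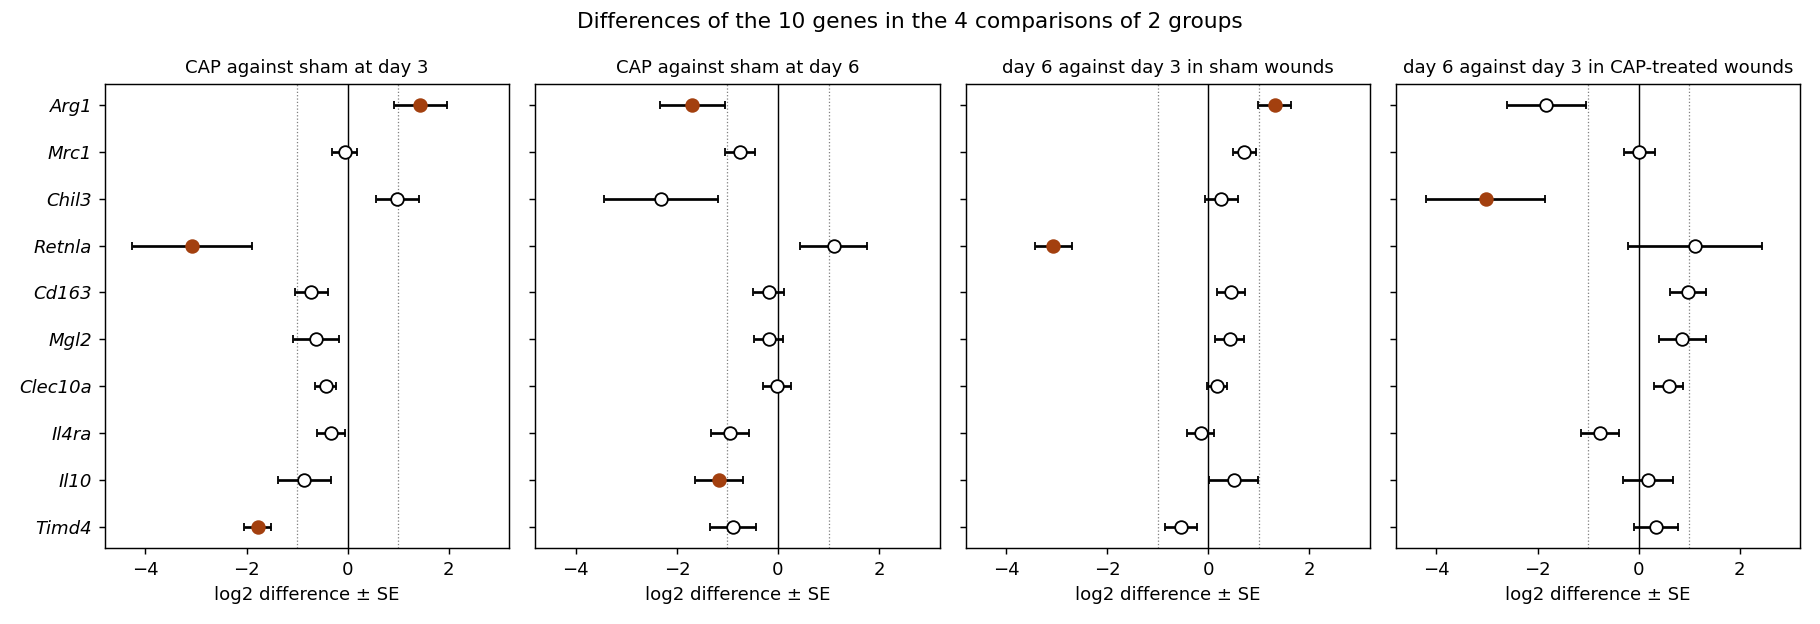
Differences of the 10 genes on the scale log2(TPM + 0.1), with bars of 1 SE, in 4 comparisons of 3 libraries with 3, and with dotted lines at 2-fold. Filled points passed the threshold. Arg1 lies at 1.44 for CAP against sham at day 3 and at -1.69 at day 6, and it changed by 1.31 in sham wounds and by -1.83 in CAP-treated wounds between the days.

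The passage from day 3 to day 6 was then followed within each treatment. In sham wounds Arg1 rose 2.48-fold and Retnla fell 8.37-fold, so that these markers, both used for alternative activation, moved in opposite directions. They were the 2 of the 10 genes called, 1 higher and 1 lower, beside 2.13% called higher and 1.61% called lower of 18368 genes (3.75% together). Retnla was the only one of the 10 genes to pass an adjusted p of 0.05 in any comparison, and in this one 2.29% of all genes did (log2 difference -3.06 ± 0.37, SE; limma p = 5.84e-05, adjusted p = 0.0146; exact permutation p = 0.1). The Arg1 difference was 1.31 ± 0.33 (SE; limma p = 0.00505, adjusted p = 0.101; exact permutation p = 0.1). Both calls held whichever library was left out, and these were the 2 of the 10 genes whose libraries did not overlap between the days, beside 21.4% of all genes. In the joint fit of 12 libraries the Arg1 call was lost. Mrc1 was 1.63-fold higher at day 6 (0.71 ± 0.23, SE; limma p = 0.0157, adjusted p = 0.183; exact permutation p = 0.2), short of 2-fold. Other markers rose in sham wounds over the same days. Endothelial markers were higher for 7 of 7 genes, with 5 called and sums of 116 to 150 TPM at day 3 and 291 to 393 TPM at day 6, and erythroid markers were called higher for 5 of 5 tested, with sums of 514 to 753 TPM and 2114 to 5623 TPM. Macrophage and monocyte markers were higher for 14 of 18 genes (median 0.30), with 0 called higher and Ly6c2 called lower. The part of these markers in the differences between the days was not tested.

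In CAP-treated wounds, Chil3 fell 8.16-fold from day 3 to day 6 and was the only gene of the 10 called, beside 1.52% called lower and 1.27% called higher of 18202 genes (2.79% together). The days overlapped for all 10 genes, while they did not for 17.7% of all genes. The Chil3 difference was -3.03 ± 1.18 (SE; limma p = 0.0383, adjusted p = 0.405; exact permutation p = 0.2). It missed the threshold without CAP day 3 replicate 2 (-2.54) or 3 (-3.06) and without CAP day 6 replicate 1 (-3.24) or 2 (-1.70), and without a filter on low genes. Neutrophil markers, which bear on Chil3, were lower at day 6 for 6 of 7 tested, with 3 called (Retnlg, Mmp8 and S100a8), and their median was -1.80 against -0.05 for all genes. Their sums ran from 1890 to 4877 TPM at day 3 and from 281 to 2676 TPM at day 6. T and NK cell markers were higher for 9 of 9 tested, with 5 called and a median of 1.05. Macrophage and monocyte markers were lower for 12 of 18 genes (median -0.35), with Itgam and Fcgr1 called lower and Cx3cr1 called higher. Of 10 keratinocyte markers, 5 were higher and 5 lower, with 4 called higher and 1 called lower. The part of these markers in the Chil3 difference was not tested. Arg1 was lower by 1.83 ± 0.77 (SE) on the log2 scale and missed the threshold narrowly (limma p = 0.0520, adjusted p = 0.434; exact permutation p = 0.2). It passed in the joint fit of 12 libraries and without CAP day 3 replicate 1 (-2.39) or CAP day 6 replicate 3 (-2.52). Cd163 was 1.98-fold higher at day 6 (0.98 ± 0.36, SE; limma p = 0.0299, adjusted p = 0.386; exact permutation p = 0.2) and passed 2-fold without CAP day 3 replicate 1 (1.30) or CAP day 6 replicate 3 (1.24) and with either scaling (1.02). Mgl2 passed without CAP day 3 replicate 3 (1.23) and Il4ra without CAP day 6 replicate 1 (-1.14). The Retnla difference of 1.12 turned to -0.37 without the library listed at 0.

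The test of the change in the CAP effect between the days set Arg1, Chil3 and Retnla apart from the other 7 genes. The CAP effect on Arg1 at day 6 was lower than that at day 3 by 3.14 ± 0.93 (SE) on the log2 scale (limma p = 0.00630, adjusted p = 0.428; exact permutation p = 0.025). That on Chil3 was lower by 3.29 ± 1.35 (SE; limma p = 0.0338, adjusted p = 0.428; exact permutation p = 0.03). That on Retnla went the other way, by 4.18 ± 1.51 (SE; limma p = 0.0182, adjusted p = 0.428; exact permutation p = 0.015). The permutation test exchanged treatments within each day, which takes no CAP effect at either day as its null. These were the 3 genes of the 10 called, 1 higher and 2 lower, beside 2.18% called higher and 2.73% called lower of 20267 genes (4.9% together). None passed an adjusted p of 0.05, and neither did any other gene of the table. The calls of Arg1 and Retnla held whichever library was left out, with ranges of -3.83 to -2.44 and 2.70 to 5.21. The Chil3 call was lost without any 1 of 7 libraries: sham day 3 replicate 1 (-3.35), 2 (-3.29) or 3 (-3.22), CAP day 3 replicate 2 (-2.80) or 3 (-3.31), and sham day 6 replicate 2 (-3.04) or 3 (-3.10). Among the markers, the change was negative for 10 of 10 neutrophil genes (2 called) and for 7 of 7 erythroid genes (6 called). It was negative for 13 of 18 macrophage and monocyte markers, with a median of -0.62 against -0.06 for all genes. Of these markers 4 were called lower, among them Mpeg1, Tyrobp and Itgam, and Ly6c2 was called higher. Lymphatic endothelial markers were negative for 7 of 7 table rows (3 called). The change was positive for 9 of 10 keratinocyte and 8 of 9 T and NK cell genes, with 4 called in each list. The part of all these markers in these results was not tested. For the other 7 genes the change in the CAP effect lay between -0.69 and 0.88, and for Timd4 it passed without CAP day 6 replicate 3 (1.26).

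Over both days, all 10 genes were lower on average in CAP-treated wounds on the log2 scale, and 2 were called lower, beside 1.34% called lower and 0.429% called higher of 20267 genes (1.77% together). Timd4 was lower by 1.34 ± 0.28 (SE; limma p = 4.81e-04, adjusted p = 0.127; exact permutation p = 0.01 within the days). Il10 was lower by 1.01 ± 0.36 (SE; limma p = 0.0163, adjusted p = 0.244; exact permutation p = 0.03). The smallest p that a permutation within the days can give is 0.005. The Timd4 call held whichever library was left out, with a range of -1.52 to -1.22, and was lost with a pseudocount of 1 TPM (-0.67). Il10 lies so close to 2-fold that it fell short without sham day 3 replicate 1 (-0.83) or 3 (-0.98), CAP day 3 replicate 3 (-0.99), sham day 6 replicate 2 (-0.98) or 3 (-0.99), or CAP day 6 replicate 2 (-0.76), with a pseudocount of 1 TPM (-0.58), and under quantile normalization (-0.87) or median-ratio scaling (-0.94). The pooled values of Arg1 (-0.13 ± 0.64, SE) and Chil3 (-0.66 ± 0.81, SE) hide effects of opposite sign at the days. Without CAP day 6 replicate 2 they were 0.36 and 0.11.

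The order of the groups also differed between the genes. For Arg1, mean levels ran from CAP day 3 (1324 TPM) through sham day 6 (1079 TPM) and sham day 3 (448 TPM) to CAP day 6 (431 TPM). Of these neighbours, only sham day 6 and sham day 3 had ranges that did not overlap. Chil3 followed the same order, with 73.2, 41.6, 32.3 and 16.0 TPM, and each group overlapped the next. For Timd4 the order was sham day 3 (1.67 TPM), sham day 6 (1.15 TPM), CAP day 6 (0.595 TPM) and CAP day 3 (0.412 TPM). Retnla was highest in sham day 3, and that range lay apart from all others. Mrc1 and Il10 were highest in sham day 6.

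Levels were also set against the mean log2 level of the 18 macrophage and monocyte markers in the same library, as a description without a test. The markers averaged 7.87 in sham and 7.65 in CAP-treated wounds at day 3, and 8.02 and 7.41 at day 6. Relative to them, Arg1 was 1.66 higher in CAP-treated wounds at day 3 and 1.09 lower at day 6. The markers themselves did not move together at day 3. Then 10 of 18 had a higher mean in CAP-treated wounds (median difference 0.09), and Ly6c2, Ccr2 and Cx3cr1 were called lower. Their summed TPM at day 3 had a median of 11455 in CAP-treated and 10672 in sham wounds, unlike their mean log2 level, which was lower in CAP-treated wounds. On this scale the groups of 4 of the 10 genes, Arg1, Chil3, Retnla and Timd4, did not overlap at day 3. Of all genes, 14.3% did not overlap, with 11.9% higher and 2.42% lower. The Arg1 gap was narrow, from 1.39 in sham replicate 1 to 1.47 in CAP replicate 1. In TPM, the Arg1 and Chil3 groups overlapped at day 3. Chil3 was 1.20 higher at day 3 and 1.70 lower at day 6, and Retnla was 2.86 lower at day 3 and 1.71 higher at day 6. Timd4 was 1.56 lower at day 3 and 0.29 lower at day 6. The Mrc1 difference at day 6 shrank to -0.14 and its groups overlapped. Cd163 and Clec10a were higher in CAP-treated wounds at day 6 by 0.42 and 0.59, with overlap. With the lower marker mean of CAP-treated wounds at day 6, a gene of unchanged level reads as higher on this scale. Of all genes, 18.9% were apart and higher at day 6, and 1.27% were apart and lower. Il10, lower by 0.56, was the only one of the 10 genes whose groups did not overlap at day 6.

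**Figure D3:**
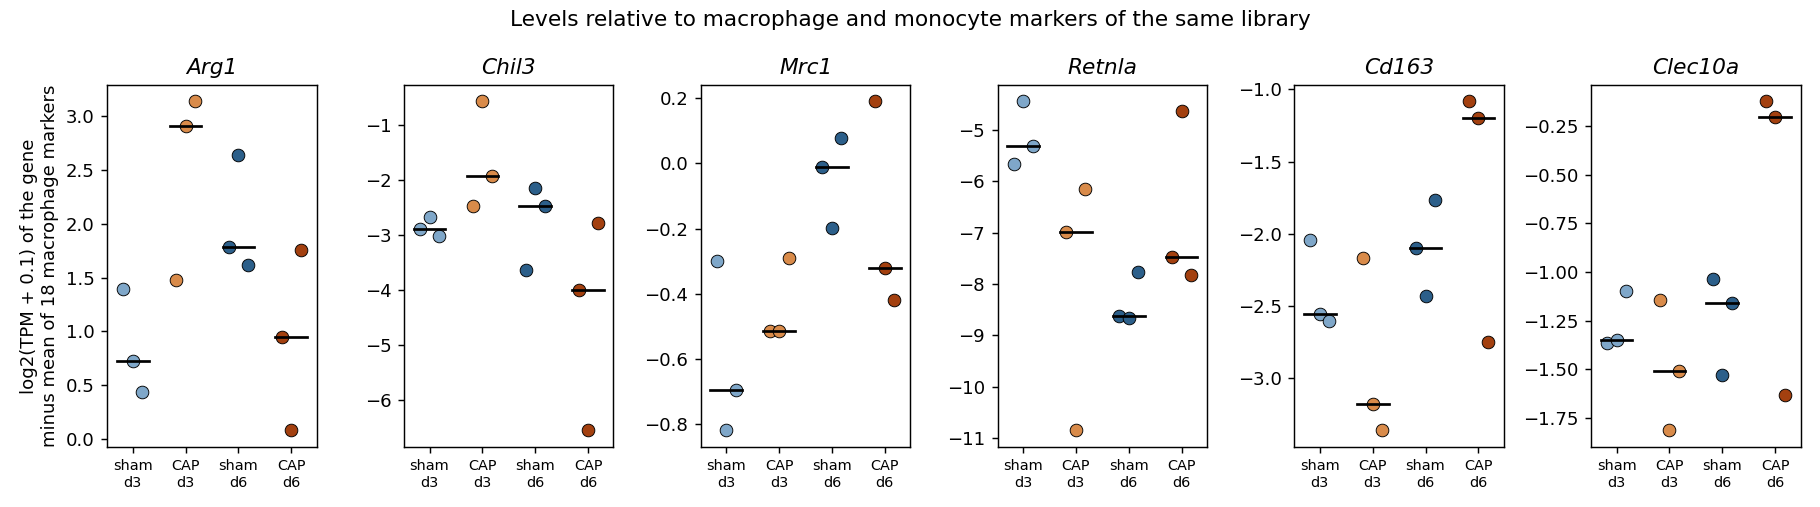
Level of 6 of the genes relative to macrophage and monocyte markers, as log2(TPM + 0.1) of the gene minus the mean of that value over 18 markers in the same library, with 1 point per library and a bar at the median, at day 3 (d3) and day 6 (d6). All 3 CAP libraries lie above all 3 sham libraries for Arg1 and Chil3 at day 3, and below them for Retnla. On this scale 14.3% of all genes did not overlap at day 3. The Arg1 gap is narrow, from 1.39 in sham replicate 1 to 1.47 in CAP replicate 1.

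The genes around these markers were read from 6 lists. Their counts stand beside 0.426% called higher and 1.16% called lower of all genes at day 3, with a median of -0.05, and 1.46% and 2.34% at day 6, with a median of -0.12. The ligands of the Il4ra chain were barely detected, and Il4 and Il13 each held under 0.5 TPM in every library, with 3 and 6 of the 12 libraries listed at 0. Of 13 tested genes of interleukin 4 and interleukin 13 signalling, 0 were called at day 3, where 0 also had an unadjusted limma p under 0.05. At day 6, 2 were lower: Il13ra2, the decoy receptor for interleukin 13 (-2.65 ± 0.82, SE; limma adjusted p = 0.216), and Jak3, a kinase of the receptor complex (-1.01 ± 0.40, SE; limma adjusted p = 0.243). Stat6 itself differed by 0.08 at day 3 and by -0.09 at day 6. The median differences of the list were -0.06 and -0.13, close to those of all genes. Among 7 genes of interleukin 10 signalling, 0 were called at either day, and at day 6 there were 4 with an unadjusted limma p under 0.05, among them the receptor chain Il10ra (-0.70 ± 0.29, SE; limma adjusted p = 0.253).

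Arginine metabolism genes had lower mean levels at day 6. All 14 tested genes had a lower mean log2 level in CAP-treated wounds, with a median of -0.37 against -0.12 for all genes, and 2 were called, whereas at day 3 there were 10 lower and 0 called. Slc7a2 encodes an arginine transporter, and at day 6 it held 11.0, 13.3 and 9.30 TPM in sham and 4.81, 3.79 and 8.90 TPM in CAP-treated wounds (-1.01 ± 0.32, SE; limma adjusted p = 0.217). It rose 2.55-fold in sham wounds from day 3 to day 6 (limma adjusted p = 0.0193). Nos2 encodes the inducible nitric oxide synthase, which uses the same substrate as Arg1 and marks classical activation, and it held 142, 175 and 73.1 TPM in sham and 21.4, 6.74 and 85.8 TPM in CAP-treated wounds at day 6 (-2.39 ± 0.85, SE; limma adjusted p = 0.229). The library order of Nos2 at day 6 was that of Arg1 in CAP-treated wounds. Arg2, which encodes the mitochondrial arginase, held between 5.91 and 16.3 TPM in all libraries and was not called (0.19 at day 3 and -0.38 at day 6).

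Other markers of alternative or resident macrophages were split at day 3, as the 10 genes were. Of 25 tested, 1 was higher and 3 lower. Folr2, a marker of resident macrophages, held 151, 115 and 156 TPM in sham and 78.5, 42.4 and 69.5 TPM in CAP-treated wounds (-1.18 ± 0.24, SE; limma adjusted p = 0.500). Vsig4, a complement receptor of resident macrophages, was lower by 1.38 ± 0.38 (SE; limma adjusted p = 0.568), and Cd209f, a C-type lectin, was lower too, with CAP replicate 2 listed at 0. Cd36, a receptor for lipids and apoptotic cells, was higher by 1.23 ± 0.42 (SE; limma adjusted p = 0.692). The monocyte genes Ccr2 (-1.33 ± 0.22, SE; limma adjusted p = 0.500) and Ly6c2 (-2.48 ± 0.67, SE; limma adjusted p = 0.562) fell at the same day. Erythroid markers moved with the treatment at day 3 as well, with sums of 2357 to 2804 TPM in CAP-treated and 514 to 753 TPM in sham wounds. Fibroblast markers had a lower mean for 8 of 8 genes (median -0.48), and skeletal muscle markers for 8 of 8 (median -0.58). Adipocyte markers had a higher mean for 6 of 6, and 0 genes of these 3 lists were called. Of 9 tested T and NK cell markers 7 had a lower mean at day 3, and Gzma, Ncr1 and Trac were called. The part of these markers in the results at day 3 was not tested.

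At day 6, the other alternative activation markers held 3 genes called lower and 1 called higher of 24 tested, with a median of -0.49. Tgm2, a transglutaminase (-1.18 ± 0.31, SE; limma adjusted p = 0.208), Msr1, a scavenger receptor (-1.08 ± 0.30, SE; limma adjusted p = 0.209), and Ear2, a ribonuclease (-1.23 ± 0.43, SE; limma adjusted p = 0.227), were lower. Alox15, a lipoxygenase, was higher, at 1.26, 1.84 and 1.36 TPM against 0.718, 0.212 and 1.02 TPM (2.38-fold; limma adjusted p = 0.248). Retnlg, a neutrophil gene of the family of Retnla, was not called at day 3 (1.70 ± 0.77, SE; limma adjusted p = 0.787) or at day 6 (-0.72 ± 0.46, SE). Of the 31-base stretches of Retnla, 5.45% occur in Retnlg. Among 7 tested genes of the TIM family and of other phosphatidylserine receptors, 0 were called at either day, with 1 at an unadjusted limma p under 0.05 at each. Timd4 had no called companion in that list.

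Classical activation genes mostly had lower mean levels at both days. At day 3, 13 of 14 tested were lower and 2 were called, Cxcl9 (-1.52 ± 0.27, SE; limma adjusted p = 0.500) and Cxcl10 (-1.30 ± 0.53, SE; limma adjusted p = 0.744), which encode chemokines induced by interferon. At day 6, all 14 were lower, with a median of -0.97, and 4 were called: Il6, Ptgs2, Cxcl10 and Nos2. Il6, an inflammatory cytokine, was lower by 1.66 ± 0.49 (SE; limma adjusted p = 0.212).

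The change in the CAP effect between the days also passed the threshold for genes around the 10, with a limma adjusted p of 0.428 for each, beside 2.18% of all genes called higher and 2.73% called lower. Of 27 other alternative activation markers tested, 1 went up and 5 went down. Folr2 went up (1.15 ± 0.37, SE), and Tgm2 (-1.39 ± 0.37, SE), Msr1 (-1.26 ± 0.43, SE), the inhibitory receptor gene Cd200r1 (-1.45 ± 0.53, SE), Cd36 and Retnlg went down. Retnlg also stands among the neutrophil markers and is counted in both lists. Among the TIM family and phosphatidylserine receptors, Havcr2, which encodes TIM-3 (-1.12 ± 0.38, SE), and Cd300lf, a receptor of myeloid cells (-2.12 ± 0.80, SE), went down. Irf4, a transcription factor that acts downstream of the interleukin 4 receptor, went up (1.30 ± 0.51, SE), as did Cxcl9 (1.24 ± 0.39, SE). Between the days in CAP-treated wounds, Ccl24, a chemokine for eosinophils, fell by 3.01 ± 0.51 (SE; limma adjusted p = 0.250) and Vsig4 rose by 1.92 ± 0.41 (SE; limma adjusted p = 0.295), while in sham wounds Ccl24 fell by 1.90 ± 0.45 (SE; limma adjusted p = 0.0829).

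**Figure D4:**
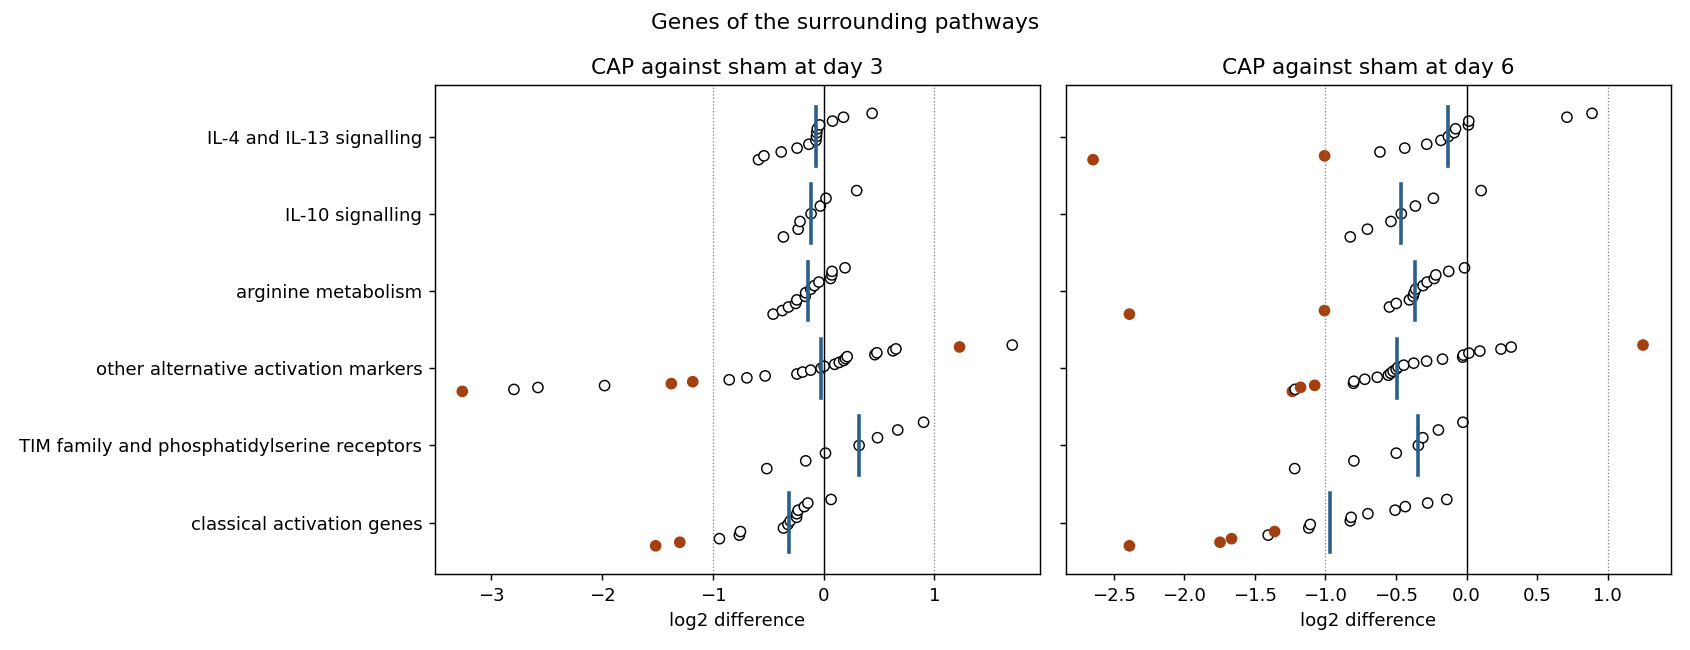
Differences between CAP-treated and sham wounds on the scale log2(TPM + 0.1) for the tested genes of 6 lists, at day 3 and day 6, with 1 point per gene, a blue bar at the median of the list and dotted lines at 2-fold. Filled points passed the threshold, and the horizontal axes of the panels differ. All tested arginine metabolism and classical activation genes lie below 0 at day 6.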

How the data were processed

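The authors made paired-end libraries with the SureSelect XT HS2 mRNA kit. Per the labels, bcl2fastq, Trimmomatic 0.36 and the build mm10 were used. StringTie gave the TPM values that the authors deposited, 1 table per library with 55487 genes. The aligner, annotation release and strand setting remained unknown (not given in the sources used here). Coordinates were those of GENCODE M21 on GRCm38 for 54777 genes, the 10 genes included. A value of 0.0001 stands for 0 in the deposited files. TPM carry no depth, so no counting error could be given, and precision rests on 3 libraries per group. Strand matters for Il4ra, which overlaps the antisense gene Gm44876 (8.86% of its 31-base stretches are shared), and Mrc1 hosts Mir511.

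On the scale log2(TPM + 0.1), linear models were fitted with limma 3.58.1 (R 4.3.3) and a variance trend on mean level. A gene entered a comparison of 2 groups if its mean reached 0.3 TPM in each. In the fits over 12 libraries (both days with day as a covariate, and the difference of the CAP effect between the days) such a mean was required in at least 1 of 4 groups. All 10 genes passed in every comparison. Genes were called at p under 0.05 and 2-fold, and exact permutation tests were 2-sided. The permutation test of the change between the days was added after the data were seen. The fit was tested on simulated data. Levels, motifs and figures were made in Python 3.11.15 (numpy 2.4.6, matplotlib 3.10.9, pandas 2.3.3).

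The 10 genes, 6 pathway lists and 13 marker lists were chosen with earlier results of these data known. Beside the 10 genes, the text names Arg2, Chil4, Retnlg, Il4, Il13 and Nos2, up to 4 called genes per list by smallest p, and the 3 genes of nearest profile for Arg1, Mrc1, Chil3 and Retnla. Stat6 and Il10ra were named after their values were seen. Alternatives were pseudocounts of 1 and 0.01 TPM, no filter, another filter, median-ratio scaling, quantile normalization, the replicate number as a block, a joint fit of 12 libraries, and leaving out each library.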

Additional observations from a re-analysis of the deposited data

Results flagged for a closer look

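For 3 genes the effect of CAP differed between the days by a test of that difference. The CAP effect at day 6 minus that at day 3 was -3.14 for Arg1, -3.29 for Chil3 and 4.18 for Retnla on the log2 scale, with limma p values of 0.00630, 0.0338 and 0.0182 and the same adjusted p of 0.428, so none passed the adjustment over 20267 genes. At day 3, Arg1 was higher in 2 of 3 CAP libraries than in any sham library and Retnla lower in all 3. At day 6, Arg1 was lower in 2 of 3 CAP libraries than in any sham library. The Retnla value rests in part on a library in which the gene is listed at 0, and without that library it was 2.70.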

How the results depend on the processing

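Depth is unknown, and 3 libraries per group limit every call. Of 60 differences of single genes, 13 were called. Over the alternatives other than leaving out a library, called differences stayed called 82 times and were lost 17 times, and those not called became called 5 times. Over the alternatives that left out a library, called differences stayed called 74 times and were lost 34 times, and those not called became called 13 times. No called difference changed sign. The number of the 10 genes called at day 3 was 3 and became 2 with either pseudocount, no filter, the replicate block or the joint fit. At day 6 it was 2 and became 1 with a pseudocount of 1 TPM, no filter, either scaling or the replicate block. With the joint fit it became 3 at day 6, with Chil3 added. From day 3 to day 6 it went from 2 to 1 in sham wounds with the joint fit. In CAP-treated wounds it went from 1 to 0 with no filter and to 2 with median-ratio scaling, quantile normalization or the joint fit. Over both days it went from 2 to 0 with a pseudocount of 1 TPM and to 1 with either scaling. The cause was not tested. Leaving out each library gave 1 to 5 genes at day 3, 0 to 3 at day 6, 2 to 2 between the days in sham and 0 to 3 in CAP-treated wounds, 1 to 2 over both days and 2 to 4 for the change in the CAP effect.

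The sign turned for Mrc1 at day 3 (0.0053) with median-ratio scaling and for Clec10a at day 6 with median-ratio scaling (0.10) and quantile normalization (0.041). Leaving out each library gave ranges that crossed 0 for Arg1 (-0.49 to 0.36) and Chil3 (-1.06 to 0.11) over both days. At day 6 they did so for Cd163 (-0.47 to 0.068), Clec10a (-0.28 to 0.19) and Mgl2 (-0.52 to 0.018), and at day 3 for Mrc1 (-0.25 to 0.18). Between the days in sham wounds they did so for Il4ra (-0.38 to 0.16) and Il10 (-0.070 to 0.96), and in CAP-treated wounds for Il10 (-0.17 to 0.72), Mrc1 (-0.16 to 0.35) and Retnla (-0.37 to 2.15). For the change in the CAP effect they did so for Il10 (-0.77 to 0.26) and Mgl2 (-0.12 to 0.81).

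Over all genes, the number called at day 3 went from 290 to 154 with a pseudocount of 1 TPM to 454 with the filter met in at least 1 group and to 568 with no filter, and at day 6 from 697 to 385 with a pseudocount of 1 TPM. From day 3 to day 6 it went from 688 to 405 and 1156 in sham wounds and from 507 to 299 and 842 in CAP-treated wounds, with a pseudocount of 1 TPM and with no filter. Over both days it went from 358 to 75 with a pseudocount of 1 TPM and to 169 with the filter met in all 4 groups, and for the change in the CAP effect from 994 to 580 with a pseudocount of 1 TPM. Over both days the share of called genes that were higher was 24.3%, against 36.0% and 41.5% with median-ratio scaling and quantile normalization. At day 3, quantile normalization raised the share of called genes that were higher from 26.9% to 38.7%. Libraries of different groups share replicate numbers, but not every correlation of deviations between same-numbered libraries was above 0.1 (-0.177 to 0.405), so the numbers were not taken as pairs. Of 18 best matches, 12 were of the same number, a hint of pairing from the data and not from the design. With the replicate number as a block, 2 of the 10 genes were called at day 3 (Arg1 was lost), 1 at day 6 (Il10, with Arg1 lost), 2 between the days in sham wounds and 1 in CAP-treated wounds (Arg1 in place of Chil3), 2 over both days and 3 for the change in the CAP effect.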

Other observations

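Arg1 and Nos2 compete for arginine, and their ratio of TPM was read per library after their values were seen. It was 5.03, 20.4 and 11.7 in sham and 22.1, 50.5 and 35.6 in CAP-treated wounds at day 3. At day 6 it was 6.44, 8.47 and 11.5 in sham and 15.04, 18.3 and 9.87 in CAP-treated wounds. The groups did not overlap at day 3, with a gap only from 20.4 to 22.1. They overlapped at day 6, where the CAP wounds held less of both genes on average. No test was made of this ratio. Ratios of other gene pairs were not read, so how often such a gap arises is unknown.

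The genes nearest to each marker in profile were found by the mean absolute difference of centred log2 levels over 12 libraries, among 16400 genes with at least 0.3 TPM in every library, as a description that shares the same libraries. For Arg1, whose own mean absolute deviation was 0.917, they were F10, which encodes coagulation factor X (0.217), Cd300lf, an inhibitory receptor of myeloid cells (0.276), and Hilpda, a lipid droplet gene induced by hypoxia (0.318). F10 held 18.8 to 34.9 TPM in sham wounds at day 3 and 26.6, 64.3 and 99.0 TPM in CAP-treated wounds. For Mrc1, with a deviation of 0.404, they were Fcgr2b, an inhibitory Fc receptor (0.0988), Il11ra1 (0.116) and Nol4l (0.123). For Chil3, with a deviation of 1.05, they were Car4, a carbonic anhydrase (0.501), F10 (0.613) and Apoc2 (0.614). For Retnla, with a deviation of 1.44, the nearest were Efhd1 (0.715), 1700019D03Rik (0.739) and Dkk2 (0.784), which lie far from it by this measure. The 10 genes were left out of this ranking. Measured separately, the closest of them lay farther away than the 3 named genes in each case. It was Chil3 for Arg1 (0.729), Mgl2 for Mrc1 (0.389), Arg1 for Chil3 (0.729) and Timd4 for Retnla (1.37).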
